A study of Mus musculus with 23 samples.

Results

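The genes described here are 10 genes of the Hippo pathway and its transcriptional output in mouse liver: Yap1, Wwtr1, Tead1, Lats2, Amotl2, Ajuba, Ctgf, Cyr61, Ankrd1 and Axl. They were taken by name, as the non-control probes whose gene name on the array was 1 of these 10, and this gave 16 of the 56605 probes and 10 of the 37074 gene names. The question they bear on is whether the pathway that limits liver size moved while the liver responded to PCN. Each array measured the whole-liver RNA of a single male mouse on the C57BL/6J background, with Cy3-labelled cRNA. Wild-type mice (WT) were bought at 6 weeks of age and acclimatized for 2 weeks. Pxr-/- mice lack the nuclear receptor PXR (gene Nr1i2), were backcrossed to the same background and came from a colony kept in the animal house, at an age that the labels do not give, so that genotype and colony cannot be told apart. PCN (pregnenolone 16α-carbonitrile), a rodent PXR ligand, was injected intraperitoneally at 100 mg/kg in corn oil once a day for 4 days. Control mice (CONT) were injected with corn oil alone, and all groups were killed 6 h after the last injection, at ZT6, in a state that the labels call fed and the study's text semi-fasted. There were 6 arrays each for WT CONT, Pxr-/- CONT and Pxr-/- PCN and 5 for WT PCN, and a WT PCN mouse that the protocol counts beyond these was not analysed here.

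The Hippo pathway is a kinase cascade that holds back the co-activators YAP (Yap1) and TAZ (Wwtr1). When the kinases LATS1 and LATS2 are inactive, YAP and TAZ enter the nucleus and bind TEAD transcription factors, which then switch on genes such as Ctgf, Cyr61, Ankrd1, Axl and Amotl2. In liver, loss of this brake leads to overgrowth of the organ. Because the cascade acts largely through phosphorylation and localization of YAP, transcript levels of its components are not a measure of its activity. Lats2 and Amotl2 are themselves both regulators of YAP and products of YAP-driven transcription.

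The upstream sequences are shown first, because TEAD factors act on their targets through a short motif. The motif searched was GGAATG, or CATTCC when read on the other strand, in the 250 bases upstream of each RefSeq start site (GRCm38.p6). Such windows were found for 8 of the 10 genes, all but Tead1 and Ctgf. Of the 10 windows of these genes 8 held the motif, against 12.6% of all 32851 windows of the same length. The Wwtr1 windows overlap and share their motif. By gene, 7 of the 8 held it, and Lats2 was the gene whose 2 windows held none. Ankrd1 and Ajuba held 2 motifs each, which was the case in 1.02% of all windows. In Yap1 the motif began 141 bases upstream of the start site, and in Axl 233 bases upstream. The 4 windows printed here are those of Cyr61 and Amotl2, whose transcripts were lower in WT PCN livers, and of Ankrd1 and Ajuba, which held 2 motifs. They are written 5′ to 3′ in the direction of the gene, with the motif in capitals. A match is a description of the letters and was not tested as a binding site. The windows lie at chr3:145649986-145650235 on the minus strand (Cyr61, listed by RefSeq as Ccn1), chr9:102717554-102717803 on the plus strand (Amotl2), chr19:36119845-36120094 on the minus strand (Ankrd1) and chr14:54577662-54577911 on the minus strand (Ajuba).
Cyr61: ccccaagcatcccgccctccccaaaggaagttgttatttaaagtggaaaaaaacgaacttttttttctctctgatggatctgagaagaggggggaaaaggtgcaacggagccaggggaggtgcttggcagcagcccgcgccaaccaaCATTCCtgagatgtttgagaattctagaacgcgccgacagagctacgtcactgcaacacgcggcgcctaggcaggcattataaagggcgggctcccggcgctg
Amotl2: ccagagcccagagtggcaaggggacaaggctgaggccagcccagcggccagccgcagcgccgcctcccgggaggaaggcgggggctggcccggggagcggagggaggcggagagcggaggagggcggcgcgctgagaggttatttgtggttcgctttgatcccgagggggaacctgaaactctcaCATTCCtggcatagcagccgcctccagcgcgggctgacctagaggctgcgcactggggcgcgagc
Ankrd1: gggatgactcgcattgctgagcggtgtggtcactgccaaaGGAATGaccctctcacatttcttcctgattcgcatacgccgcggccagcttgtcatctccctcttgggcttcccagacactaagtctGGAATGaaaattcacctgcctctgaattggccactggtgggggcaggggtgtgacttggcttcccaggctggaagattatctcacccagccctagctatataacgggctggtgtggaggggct
Ajuba: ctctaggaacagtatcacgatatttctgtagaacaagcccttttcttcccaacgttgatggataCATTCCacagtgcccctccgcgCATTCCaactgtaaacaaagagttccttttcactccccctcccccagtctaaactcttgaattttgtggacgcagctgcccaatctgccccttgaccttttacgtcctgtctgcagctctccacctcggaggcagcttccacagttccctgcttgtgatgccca

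The probes of the genes lie, in mm9 coordinates of the array files, at chr9:7932025-7932084 (Yap1), chr3:57262551-57262610 (Wwtr1), chr14:58308807-58308866 (Lats2), chr9:102635025-102635084 (Amotl2), chr14:55186812-55186871 (Ajuba), chr10:24318281-24318340 (Ctgf), chr3:145310187-145310246 (Cyr61), chr19:36186809-36186868 (Ankrd1) and chr7:26542335-26542394 (Axl). Amotl2 and Ctgf lie on the plus strand and the others on the minus strand. Exon and UTR annotation of that build was not used here. All arrays measured a similar number of probes, from 29506 to 33319 well above background, and the correlation between arrays was at least 0.977 over the kept probes. The 7 hepatocyte markers passed the filter, and their summed log2 signal lay between 19.98 and 20.29 on every array. That sum is made up mostly of the brightest signals, which quantile normalization draws to similar values on every array. Its narrow range is therefore not a measure of hepatocyte content. The probe for Nr1i2 did not separate the genotypes (log2 medians of 11.60 in WT CONT and 11.79 in Pxr-/- CONT), and whether it lies in the deleted part was not tested. Cyp3a11, the classical PXR target, was 11.7-fold higher in WT PCN than in WT CONT (adjusted p = 4.12e-10), whereas the Pxr-/- groups differed by 1.24-fold (adjusted p = 0.431). RNA came from whole liver, so that fewer cells of a type and less RNA per cell cannot be told apart for any gene below.

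Of the 10 genes, 9 had a probe that passed the filter and were tested, 15 probes in all. Values are quantile-normalized log2 signals of the brightest kept probe of a gene. Differences are log2 changes from limma with an additive term for washing batch, and p-values were adjusted with Benjamini-Hochberg over all kept probes. A gene was called when its adjusted p was at most 0.05 and its fold change above 1.5. In WT mice, 1 of the 9 genes was called lower with PCN and 0 were called higher. Among all 21056 genes tested, 2.39% were called lower and 3.79% higher in the same comparison, so that the count of these genes is not set apart from the background. At any fold, 3 of the 9 genes (Lats2, Amotl2 and Cyr61) passed the adjusted p in WT mice, all of them lower, where 12.4% of all genes did (11.6% higher). By that looser rule 0 of the 9 passed in the other comparisons, where 3.24% of all genes were higher and 3.63% lower in Pxr-/- mice, 1.05% and 0.508% for the difference of responses, and 0.347% and 0.147% between the control groups. In WT mice 5 of the 9 had an unadjusted p under 0.05, with Yap1, Lats2, Amotl2 and Cyr61 lower and Ajuba higher. The Pxr-/- groups gave 0 of the 9 called in either direction, and 0 had an unadjusted p under 0.05, against 1.42% of all genes called higher and 0.86% called lower. The difference between the PCN effects of the genotypes was called for 0 of the 9 (0.807% of all genes higher, 0.242% lower), with 1 gene, Lats2, at an unadjusted p under 0.05. Between the control groups of the genotypes 0 of the 9 were called (0.228% higher, 0.0807% lower), with 2 genes, Ctgf and Cyr61, at an unadjusted p under 0.05. The share of all genes at an unadjusted p under 0.05 is not given here. Counts at that threshold, here and for the lists below, are therefore not set against a background. The WT and Pxr-/- PCN effects use different control mice, but the difference of effects and the genotype comparison share control arrays with them.

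**Figure D1:**
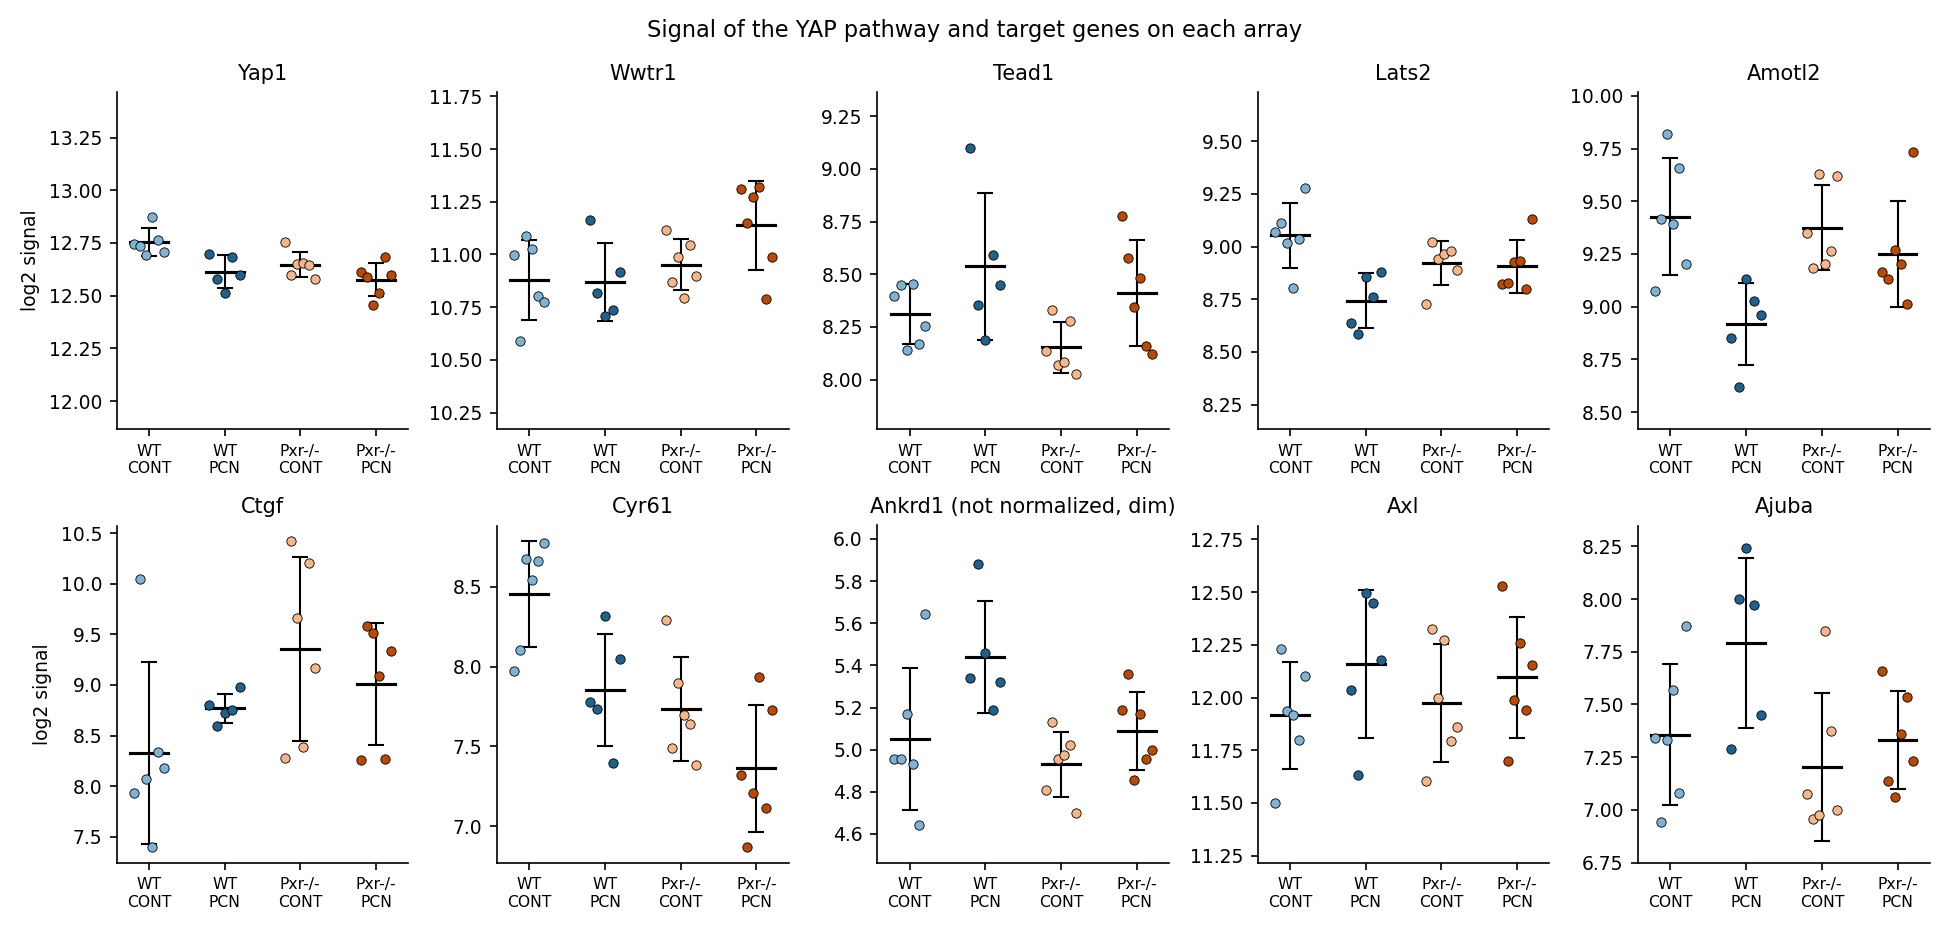
Log2 signal of each gene (vertical axis) on each of the 23 arrays, by group (horizontal axis). Points are arrays, bars are group means and whiskers are 1 SD. The vertical axes differ between panels but span at least 1.6 log2 units. Cyr61 was highest in WT CONT (mean 8.45), Amotl2 and Lats2 were lowest in WT PCN (means 8.92 and 8.74), and the Ctgf signal of WT PCN (SD 0.14) was far less spread than that of either control group (SD 0.90). Ankrd1 is not normalized because its probe did not pass the filter.

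The brightest probes of the co-activators and of their DNA-binding partner passed no threshold. Yap1, which encodes YAP, had signals of 12.70, 12.58, 12.51, 12.68 and 12.60 in the 5 WT PCN livers. In WT CONT the lowest, median and highest signals were 12.69, 12.74 and 12.88, in Pxr-/- CONT 12.58, 12.65 and 12.75, and in Pxr-/- PCN 12.46, 12.59 and 12.68. The groups overlapped, and their means ran from 12.58 to 12.75. The log2 change with PCN was -0.14 in WT mice (SE 0.06, 95% interval -0.26 to -0.02, adjusted p = 0.0734) and -0.07 in Pxr-/- mice (SE 0.05, adjusted p = 0.48). With the deposited normalized values the WT change was 0.03 (adjusted p = 0.803), and in that table the median change of all genes was 0.116 rather than -0.024. A dimmer Yap1 probe gave -0.12 in WT mice and 0.15 in Pxr-/- mice, and neither passed (adjusted p = 0.383 and 0.327).

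Wwtr1, which encodes TAZ, had signals of 11.16, 10.81, 10.71, 10.74 and 10.91 in WT PCN, and its WT CONT signals ran from 10.59 to 11.09 with a median of 10.90. These ranges overlapped and the WT change was -0.02 (SE 0.11, adjusted p = 0.929). The Pxr-/- means were 10.95 in CONT and 11.14 in PCN, a change of 0.19 (SE 0.10, adjusted p = 0.304). The 95% interval of the WT change, -0.24 to 0.21, lay inside the 1.5-fold lines (0.58 on the log2 scale) on both sides.

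Tead1, a TEAD factor through which YAP and TAZ bind DNA, was measured by 3 probes that did not give the same answer in Pxr-/- mice. The brightest probe had signals of 9.10, 8.35, 8.19, 8.59 and 8.45 in WT PCN and a range of 8.14 to 8.45 in WT CONT. It changed by 0.22 in WT mice (SE 0.13, adjusted p = 0.254) and by 0.26 in Pxr-/- mice (SE 0.13, adjusted p = 0.241). WT PCN replicate 1 stood above the others on this probe, and without it the WT change was 0.09 (adjusted p = 0.654). Averaged over the 3 probes, the Pxr-/- change was 0.38 (adjusted p = 0.00694), under the 1.5-fold threshold. Another probe, by which the gene was not counted, rose in Pxr-/- mice, from a mean of 7.43 in CONT to 8.17 in PCN. Its log2 change there was 0.74 (SE 0.17, adjusted p = 0.0108), past both thresholds, and 0.15 in WT mice (adjusted p = 0.596). Its CONT signals ran from 6.96 to 7.95 and its PCN signals from 7.93 to 8.40, so that the groups overlapped at their edges. The difference between the responses was -0.60 for this probe (SE 0.24, adjusted p = 0.251). The third probe changed by 0.15 in Pxr-/- mice (adjusted p = 0.328). The 3 probes lie on chromosome 7 (mm9, plus strand), the brightest at 120049844-120049903, the one that rose at 120042876-120042935 and the third at 120042204-120042263, and all 3 are assigned to the same transcript by the array files.

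The regulators Lats2 and Amotl2 were lower in WT PCN livers by less than the 1.5-fold threshold. Lats2, the kinase that phosphorylates and retains YAP, had signals of 8.64, 8.59, 8.86, 8.76 and 8.88 in WT PCN. In WT CONT the lowest, median and highest signals were 8.80, 9.05 and 9.28. The ranges overlapped between 8.80 and 8.88, with 3 of the 5 PCN livers below every control liver. The log2 change was -0.30 (SE 0.08, 95% interval -0.48 to -0.13, adjusted p = 0.0105), which is a 1.24-fold lower level. The lowest, median and highest Pxr-/- signals were 8.73, 8.95 and 9.02 in CONT and 8.80, 8.88 and 9.13 in PCN. There the change was -0.02 (SE 0.08, 95% interval -0.18 to 0.15, adjusted p = 0.941). The difference between the genotypes' responses was -0.29 (SE 0.11, adjusted p = 0.235) and did not pass. A second Lats2 probe gave the same WT change of -0.30 (SE 0.07, adjusted p = 0.00475), and the third, which is assigned to another Lats2 transcript, gave -0.19 (SE 0.11, adjusted p = 0.257).

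Amotl2, an angiomotin-family scaffold that binds YAP and keeps it in the cytoplasm, showed the same order of groups in WT mice. Its WT PCN signals were 8.85, 8.62, 9.13, 9.03 and 8.96, and its WT CONT signals had a lowest, median and highest value of 9.07, 9.41 and 9.82. A single PCN liver, replicate 3, lay above the lowest control liver. The log2 change was -0.50 (SE 0.14, 95% interval -0.79 to -0.22, adjusted p = 0.0113), a 1.42-fold lower level. Without PXR the lowest, median and highest signals were 9.18, 9.31 and 9.63 in CONT and 9.01, 9.18 and 9.73 in PCN, and the change was -0.12 (SE 0.13, adjusted p = 0.644). The difference between the responses was -0.38 (SE 0.19, 95% interval -0.78 to 0.02, adjusted p = 0.375). With the deposited normalized values the WT changes of Amotl2 and Lats2 were -0.35 and -0.16, with adjusted p of 0.0572 and 0.347. Without WT PCN replicate 2 the Amotl2 change was -0.41 (adjusted p = 0.0509). Within washing batch 1 Lats2 and Amotl2 changed by -0.28 and -0.57 (adjusted p = 0.0909 and 0.042), and within batch 2 by -0.34 and -0.46 (adjusted p = 0.205 and 0.21).

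Ajuba, a LIM-domain scaffold that binds and restrains LATS kinases, was at 7.29, 8.0, 8.24, 7.97 and 7.45 in WT PCN and between 6.94 and 7.87 in WT CONT. The change was 0.44 (SE 0.19, 95% interval 0.05 to 0.84, adjusted p = 0.0992) and did not pass. The Pxr-/- change was 0.13 (SE 0.18, adjusted p = 0.747). The direction of the Ajuba difference in WT mice was therefore opposite to that of Lats2 and Amotl2.

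**Figure D2:**
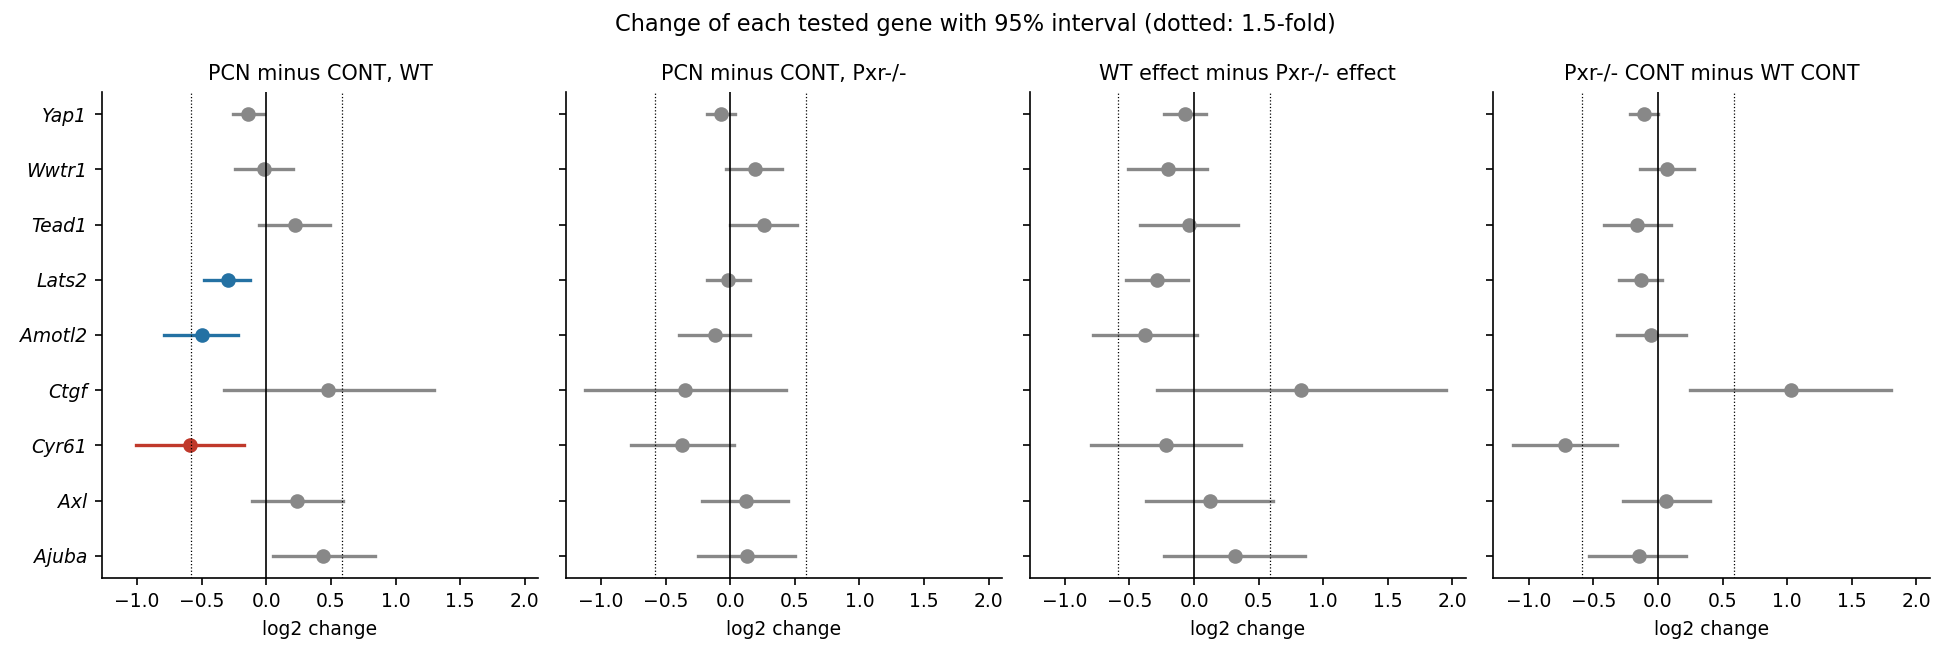
Log2 change (horizontal axis) of the 9 tested genes (vertical axis) in the 4 comparisons, with 95% intervals. Red marks a change past both thresholds, blue a change past the adjusted p alone, and grey neither. Dotted lines mark 1.5-fold. Cyr61 in WT mice (-0.59) was the called change, Lats2 (-0.30) and Amotl2 (-0.50) passed the adjusted p alone, and the intervals of Ctgf were the widest in all 4 comparisons.

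Cyr61 (CCN1), a secreted matricellular protein and a standard readout of YAP and TEAD activity, was the gene called lower in WT mice. Its signals in WT PCN were 7.78, 7.73, 8.32, 7.39 and 8.05, and the lowest, median and highest signals in WT CONT were 7.97, 8.60 and 8.78. PCN replicates 3 and 5 lay within the control range and the other 3 below it. The log2 change was -0.59 (SE 0.20, 95% interval -1.01 to -0.17, adjusted p = 0.0374), a 1.51-fold lower level, just past the fold threshold. The call was kept in 7 of 14 other processing settings and in 15 of 23 fits that each left out 1 array. It was lost without any of WT PCN replicates 1, 2 and 4, WT CONT replicates 3, 4, 5 and 6 or Pxr-/- CONT replicate 1, with log2 changes of -0.58, -0.54, -0.49, -0.53, -0.58, -0.54, -0.54 and -0.58 in that order. Within washing batch 1 the change was -0.70 (adjusted p = 0.0801) and within batch 2 it was -0.45 (adjusted p = 0.423). The change was negative in all of these fits.

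Cyr61 signals in Pxr-/- mice were lower than in WT CONT already without PCN, with a lowest, median and highest value of 7.38, 7.67 and 8.29 in CONT and of 6.87, 7.27 and 7.93 in PCN. The group mean was highest in WT CONT (8.45), followed by WT PCN at 7.85, then Pxr-/- CONT at 7.73, and was lowest in Pxr-/- PCN (7.36). The Pxr-/- CONT group was below WT CONT by a log2 difference of -0.72 (SE 0.19, 95% interval -1.12 to -0.32), which lies at the 0.29th percentile of all genes in that comparison but had an adjusted p of 0.117. This genotype difference was called with the deposited normalized values (-0.85, adjusted p = 0.0405), and without Pxr-/- CONT replicate 1 (-0.85, adjusted p = 0.0437). With the deposited values the median change of all genes in that comparison was -0.111. Between the Pxr-/- groups the PCN change was -0.37 (SE 0.19, adjusted p = 0.27), and the difference between the responses was -0.22 (SE 0.28, 95% interval -0.80 to 0.36, adjusted p = 0.776). The responses of the genotypes were thus not shown to differ.

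**Figure D3:**
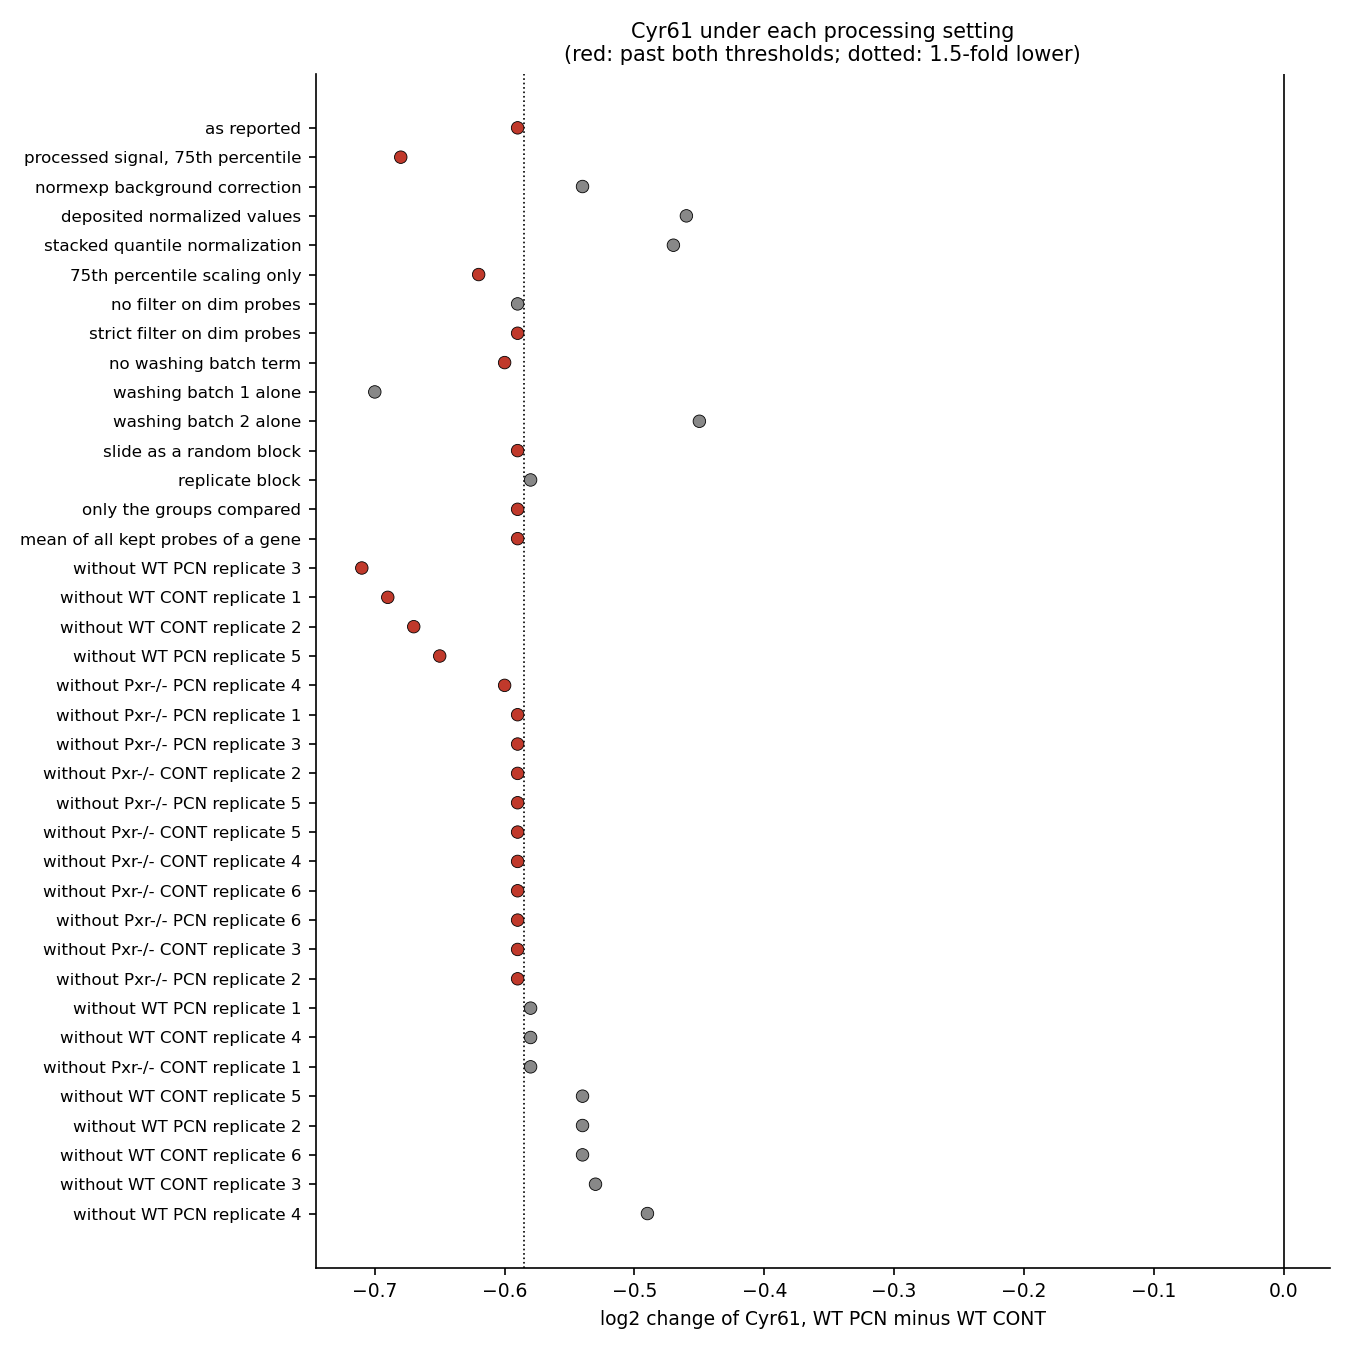
Log2 change of Cyr61 between WT PCN and WT CONT (horizontal axis) under each processing setting and with each array left out (vertical axis). Red points passed both thresholds and grey points did not, and the dotted line marks a 1.5-fold lower level. All points lie between -0.71 and -0.45, on both sides of the dotted line.

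Ctgf (CCN2), the other CCN-family target of YAP, did not follow Cyr61. Its WT PCN signals were tightly grouped at 8.80, 8.59, 8.72, 8.75 and 8.98, whereas the lowest, median and highest signals were 7.40, 8.13 and 10.04 in WT CONT, 8.28, 9.42 and 10.42 in Pxr-/- CONT and 8.26, 9.21 and 9.58 in Pxr-/- PCN. The WT PCN range thus lay inside the WT CONT range. The SD was 0.14 in WT PCN and 0.90, 0.90 and 0.60 in the other groups. The PCN change was 0.48 in WT mice (SE 0.39, adjusted p = 0.408) and -0.35 in Pxr-/- mice (SE 0.37, adjusted p = 0.646). Pxr-/- CONT was above WT CONT by 1.03 (SE 0.37, 95% interval 0.25 to 1.80), at the 99.8th percentile of all genes in that comparison, with an adjusted p of 0.289. WT CONT replicate 2 was the high liver of its group. Without it the WT change was 0.78 (adjusted p = 0.114) and the genotype difference 1.35 (adjusted p = 0.0896).

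The cardiac and muscle repeat protein gene Ankrd1, a sensitive YAP target in cultured cells, was close to background. The scanner software rated its only probe as well above background in 2 of 5 WT PCN livers, 1 of 6 WT CONT, 1 of 6 Pxr-/- PCN and 0 of 6 Pxr-/- CONT livers. The log2 signals before normalization were 5.34, 5.88, 5.46, 5.19 and 5.32 in WT PCN and ran from 4.64 to 5.64 in WT CONT, 4.70 to 5.13 in Pxr-/- CONT and 4.86 to 5.36 in Pxr-/- PCN. No fold change is given for it, and a change of Ankrd1 was not detectable with this probe.

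Axl, a receptor tyrosine kinase of the TAM family that macrophages also express, was at 12.04, 11.63, 12.49, 12.45 and 12.18 in WT PCN and ran from 11.50 to 12.23 in WT CONT, 11.60 to 12.32 in Pxr-/- CONT and 11.70 to 12.53 in Pxr-/- PCN. Every group spanned a similar range, and the PCN change was 0.24 in WT mice (SE 0.17, adjusted p = 0.336) and 0.12 in Pxr-/- mice (SE 0.16, adjusted p = 0.729). A dimmer Axl probe changed by 0.12 and 0.38 (adjusted p = 0.712 and 0.254). What varied was the individual liver. After group means and washing batch were removed, the genes whose signal ran most like that of Axl over the 23 arrays were Clec12a (r = 0.955), Treml4 (r = 0.949) and Fpr2 (r = 0.92), all receptors of myeloid cells. These genes were named after their values were seen. The mean deviation of the 9 Kupffer cell markers, the macrophages resident in liver, had r = 0.91 with Axl, r = 0.60 with Lats2 and r = 0.41 or less with each of the other 7 tested genes. Lats2 had r = 0.66 with the 3 blood markers and r = 0.62 with the 10 endothelial markers. The median change of the blood markers with PCN was -0.43 in WT and -0.47 in Pxr-/- mice, their summed log2 signal ran from 16.44 to 17.95 in WT CONT and from 16.56 to 17.28 in WT PCN, and their part in the Lats2 difference was not tested. These correlations are a description over arrays that share hybridization and labelling. Of the 9 Kupffer cell markers 0 were called in any comparison and 0 had an unadjusted p under 0.05, and their summed log2 signal ran from 14.91 to 16.67 over all arrays.

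**Figure D4:**
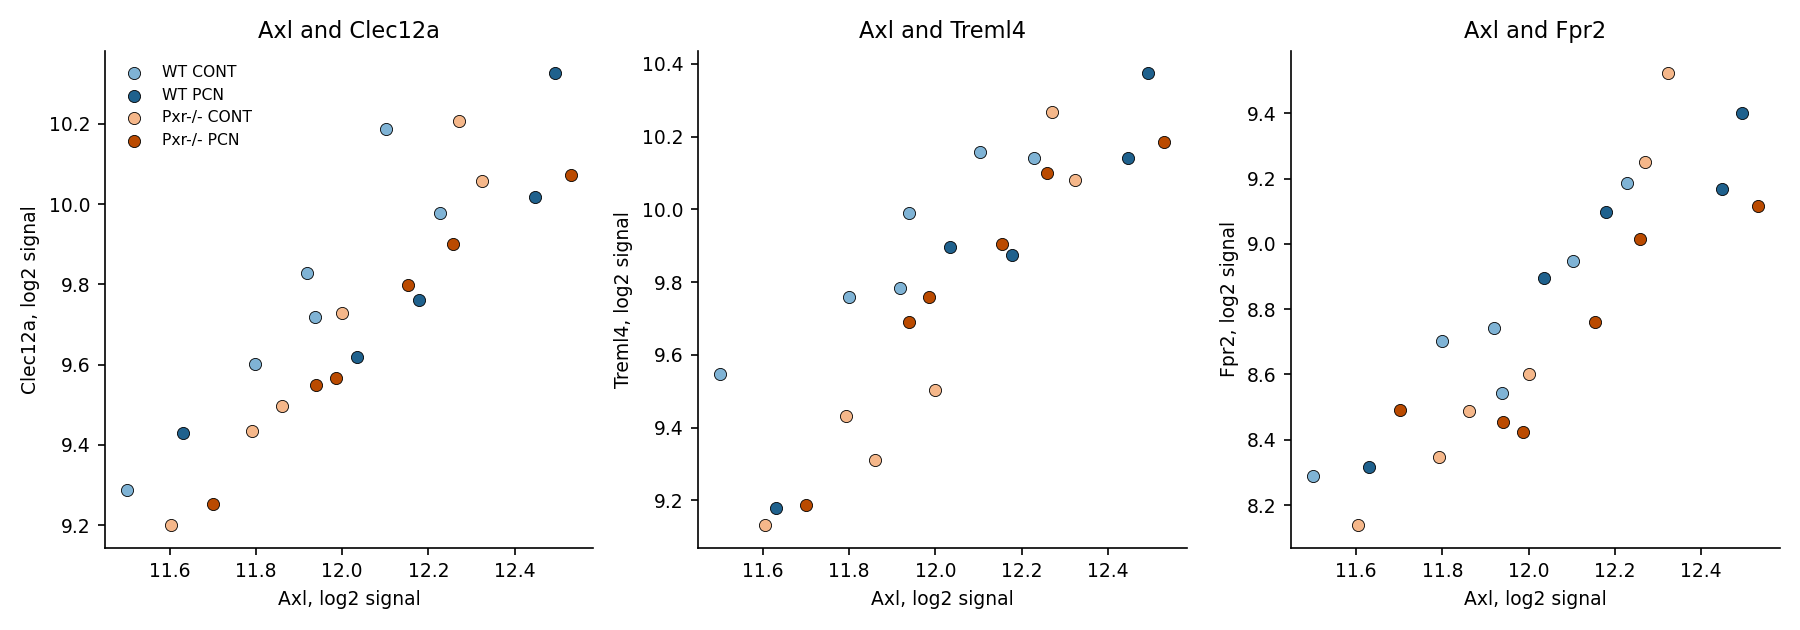
Log2 signal of Axl (horizontal axes) against that of Clec12a, Treml4 and Fpr2 (vertical axes) on the 23 arrays, coloured by group. The points of all 4 groups lie along the same rising band, with r over all arrays of 0.896, 0.866 and 0.894, and no group stands apart.

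The 9 tested genes did not vary as a unit from liver to liver. Over the 36 pairs of the 9 tested genes, r within groups ran from -0.61 (Ctgf and Ajuba) to 0.50 (Wwtr1 and Tead1) over 23 arrays. Amotl2 and Cyr61, both lower in WT PCN, had r = 0.37, Ctgf and Cyr61 -0.34, and Yap1 and Lats2 -0.53. For Cyr61, the genes with the most similar signal were Cops6 (r = 0.774), Rhobtb2 (r = 0.766) and Cebpa (r = 0.709). Another 81 values set a gene against the mean deviation of a list of cell type markers. With the 7 hepatocyte markers r was 0.71 for Ctgf, -0.49 for Cyr61 and -0.54 for Ajuba, and from -0.17 to 0.33 for the other tested genes. The list means were not scaled, so that the markers that vary most between livers weigh most. They are therefore not a measure of cell content. The points share RNA, labelling and normalization, and no p-value is attached to them.

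Other components of the pathway were measured by a list of 28 Hippo core genes and regulators, of which 27 were tested and Amotl1 did not pass the filter. In WT mice 0 were called higher and 1 was called lower, where 2.39% of all genes were called lower. That gene was Taok3, a kinase that can activate MST kinases upstream of LATS, with a log2 change of -0.63 (SE 0.14, adjusted p = 0.00226). Its mean was also lower with PCN in Pxr-/- mice (10.77 in CONT and 10.35 in PCN), where it was not called. The list's median change was -0.04, beside -0.024 for all genes, and 2 members were higher and 7 lower at an unadjusted p under 0.05. Even at an adjusted p of at most 0.05 and any fold, 11.6% of all genes were higher and 12.4% lower in WT mice. The 7 lower members are therefore not read as a lean of the list. In Pxr-/- mice 0 were called (1 higher and 6 lower at an unadjusted p under 0.05), where 1.42% of all genes were called higher and 0.86% lower. For the difference of responses 0 were called (0.807% of all genes higher, 0.242% lower), and between the control groups 0 (0.228% higher, 0.0807% lower).

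A minority of the YAP and TEAD targets known from cultured cells rose in WT mice. Of 20 such genes 17 were tested (Fjx1, Foxf2 and Nppb did not pass the filter), and in WT mice 6 rose and 0 fell, beside 3.79% of all genes called higher. The list's median was 0.17, 9 of the 17 changes were positive, and 8 genes were higher and 1 lower at an unadjusted p under 0.05. Gadd45a, a growth arrest and DNA damage response gene, rose by 1.65 (SE 0.19, adjusted p = 5.16e-06). Tagln, an actin-binding protein of smooth muscle and myofibroblasts, rose by 1.13 (SE 0.15, adjusted p = 1.96e-05). Ccdc80 (0.96), Myof (0.82) and Tgfb1i1 (0.60) also rose. Among the 17 genes 2 rose in Pxr-/- mice, Gadd45a by 0.69 (adjusted p = 0.0293) and Ccdc80 by 0.71 (adjusted p = 0.0427), and 0 fell (6 higher and 4 lower at an unadjusted p under 0.05), with a median of -0.01. Over all genes, 1.42% were called higher and 0.86% lower in Pxr-/- mice. The count of 2 was 0 or 1 without any of Pxr-/- PCN replicates 1, 3, 4, 5 and 6, Pxr-/- CONT replicates 1, 3, 5 and 6 or WT PCN replicate 5. The difference of responses was called for 0 of 17 (0.807% of all genes higher, 0.242% lower), with 3 higher and 1 lower at an unadjusted p under 0.05.

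Of 10 genes known to rise when YAP is activated in liver, 9 were tested (Areg did not pass the filter). In WT mice 3 rose and 0 fell, with a list median of 0.55, where 3.79% of all genes were called higher. Myc, a growth-promoting transcription factor, rose by 2.77 (SE 0.30, 6.81-fold, adjusted p = 1.85e-06), Birc5, a mitotic survival gene, by 1.28 (SE 0.32, adjusted p = 0.00583), and Sox9, a biliary and progenitor transcription factor that is also on the list of bile duct markers, by 0.76 (SE 0.21, adjusted p = 0.0109). The Pxr-/- groups gave 0 of 9 called (1.42% of all genes higher, 0.86% lower), with 2 higher and 1 lower at an unadjusted p under 0.05. Myc was the 1 gene of the 9 whose response differed between the genotypes, by 2.24 (SE 0.41, adjusted p = 0.00417), where 0.807% of all genes were called higher.

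**Figure D5:**
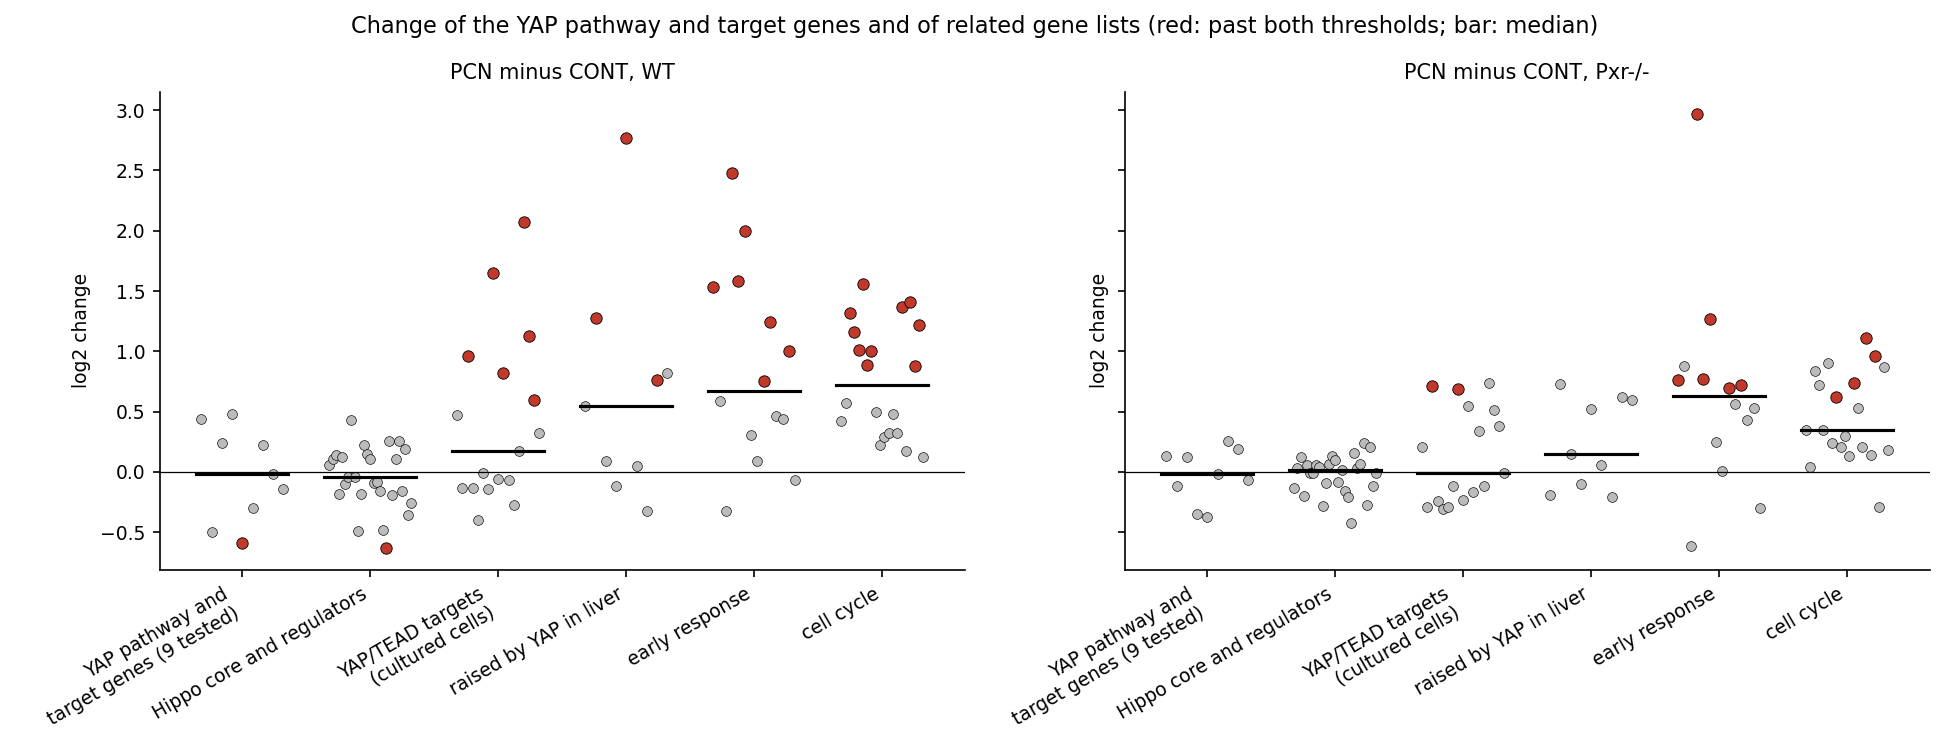
Log2 change with PCN (vertical axis) in WT (left) and Pxr-/- mice (right) for the 9 tested YAP genes and 5 related gene lists (horizontal axis). Each point is a gene, red points passed both thresholds and bars are list medians. In WT mice the medians were -0.02 for the YAP genes, -0.04 for the Hippo list, 0.17 and 0.55 for the target lists, 0.67 for early response genes and 0.72 for cell cycle genes.

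Cyr61 is also an immediate early gene, and some other genes of that class rose with PCN. The share of all genes called higher was 3.79% in WT and 1.42% in Pxr-/- mice. Of 14 early response genes, 7 rose in WT mice and 0 fell, among them Egr1 (2.48, SE 0.70, adjusted p = 0.0134), Fos (2.00, SE 0.30, adjusted p = 8.89e-05) and Atf3 (1.53, SE 0.18, adjusted p = 5.14e-06). In Pxr-/- mice 6 of the 14 rose and 0 fell, and the difference of responses was called for 0 of 14 (2 higher at an unadjusted p under 0.05). For that difference 0.807% of all genes were called higher and 0.242% lower. Of 20 cell cycle genes, 10 rose in WT mice and 0 fell, with Mki67 at 1.37 (SE 0.29, adjusted p = 0.00161) and Foxm1 at 1.00 (SE 0.19, adjusted p = 0.000822). In Pxr-/- mice 4 of the 20 rose. This count was 1 or 2 without any of Pxr-/- PCN replicates 1, 3, 4 and 5 or Pxr-/- CONT replicates 1, 3, 5 and 6. The difference of responses was called for 0 of the 20 cell cycle genes (3 higher at an unadjusted p under 0.05). The cell cycle responses of the genotypes were thus not shown to differ. Between the control groups 0 genes of either list were called (0.228% of all genes higher, 0.0807% lower), with 0 early response and 3 cell cycle genes lower at an unadjusted p under 0.05. Egr2 passed the filter only through the PCN groups, being well above background in 2 of 6 WT CONT and 3 of 6 Pxr-/- CONT livers. Bub1 and Bub1b of the cell cycle list passed through WT PCN alone (3 and 4 of 5 livers), with 0 of 6 in either control group. For these genes a rise with PCN is not independent of the filter.

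Among markers of other liver cells, some of those of stellate cells and fibroblasts and of mesothelium rose with PCN in both genotypes. Over all genes, 3.79% were called higher and 2.39% lower in WT mice, and 1.42% and 0.86% in Pxr-/- mice. Of 10 stellate cell and fibroblast markers, all tested, 4 rose in WT mice (Col1a1 by 3.17, Col1a2 by 2.18, Col3a1 by 2.18 and Lum by 1.13), and the same 4 genes rose in Pxr-/- mice (by 1.96, 1.37, 1.22 and 0.89). Of the others, Lrat, which makes the retinyl esters that quiescent stellate cells store, was at -0.47 in WT mice (SE 0.19, adjusted p = 0.0735), and Dcn, which encodes the matrix proteoglycan decorin, at -0.02 (SE 0.17, adjusted p = 0.942). Both were named after their values were seen. The summed log2 signal of the list ran from 14.57 to 15.26 in WT CONT, 15.07 to 15.67 in WT PCN, 14.41 to 15.06 in Pxr-/- CONT and 14.46 to 15.60 in Pxr-/- PCN. Of 5 mesothelial markers, Krt14 and Wt1 rose in both genotypes (Krt14 by 2.27 and 2.18, Wt1 by 1.05 and 0.89). The other 3 were not called, and the list's median change was 0.28 in WT and 0.68 in Pxr-/- mice. The summed signal of the 5 ran from 9.01 to 9.91 in WT CONT and from 9.27 to 10.91 in WT PCN. The part of these cells in the rise of Tagln or Ccdc80 was not tested. Of 8 bile duct markers, 7 were tested. In WT mice 1 of these, Sox9, was called higher. In that comparison 3 were higher at an unadjusted p under 0.05, and the median change was 0.41. In Pxr-/- mice 0 were called, 3 were higher at the same unadjusted threshold, and the median change was 0.60. The part of bile duct cells in the Sox9 change was not tested. Of the hepatocyte markers, 0 of 7 were called in WT mice (1 lower at an unadjusted p under 0.05), and Apoa1 rose by 0.62 in Pxr-/- mice. In WT mice 0 of 10 endothelial (3 higher and 1 lower at an unadjusted p under 0.05), 0 of 6 lymphocyte (1 lower) and 0 of 3 blood markers (1 lower) were called.

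The choice of normalization set how many genes counted as higher or lower. In WT mice 798 genes were called higher and 504 lower, against 1387 and 259 with the deposited normalized values, and between the control groups the counts were 48 and 17 against 27 and 33. With the deposited values the median change of all genes was 0.116 in WT mice and -0.111 between the control groups. Stacked quantile normalization gave 0.104 and -0.111, and the main fit -0.024 and -0.005. Before normalization the median log2 signal of an array ran from 7.84 to 8.08 in WT PCN, 7.59 to 7.96 in WT CONT and 7.54 to 7.91 in Pxr-/- CONT. Quantile normalization removed such differences between arrays, and which setting is nearer to the RNA content was not tested. The Cyr61 changes with the deposited values, -0.46 in WT mice and -0.85 between the control groups, are not corrected for these medians.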

How the data were processed

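Liver RNA of 23 mice was measured on Agilent 1-colour mouse arrays, and groups, replicate numbers and the 2 washing batches come from the labels. Per the labels, the authors scanned with Agilent Feature Extraction 10.10.1.1, and the deposited scanner files hold a linear intensity per spot that is not normalized between arrays. The authors also deposited log2 values, which they describe as filtered, corrected for washing batch and normalized with CrossNorm, with column medians of 7.54 to 8.01. How arrays were stacked for it is not given in the sources used here. From the scanner files, median signals of non-control spots without outlier flags were taken as log2 and averaged per probe, and a probe was kept where over 50% of the livers in any 1 group rated it well above background (32086 of 56605, 21056 genes) and quantile normalized. limma 3.58.1 in R 4.3.3 was fitted to all 4 groups with an additive washing batch term (18 residual degrees of freedom), and Benjamini-Hochberg adjustment ran over all kept probes. Calls needed both an adjusted p no higher than 0.05 and a change of over 1.5-fold, and each gene was represented by the brightest of its kept probes. The code was tested on simulated data. The number of arrays limits the precision.

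Genes and lists were chosen with earlier results of these data known. Named beyond the 10 genes were list genes called in any comparison and the 3 genes most like a called gene. The genes most like Axl and the markers Lrat and Dcn fall outside that rule and were chosen after their values were seen. Some list genes were named only for how they passed the filter or failed it. The alternatives were the processed signal scaled to its 75th percentile, normexp correction (offset 50), the deposited values, stacked quantile normalization, percentile scaling, no or a stricter filter, no batch term, each batch alone, the slide (8 slides) or the replicate number as a block, only the groups compared, the mean of all probes, and each array left out. Gene names were those of the array files. The 10 names matched RefSeq, 8 by symbol and the others by synonym, and promoter windows are RefSeq's for GRCm38.p6. Probe positions were copied from the scanner files, in mm9. The values of 1 list gene are not reported here.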

Additional observations from a re-analysis of the deposited data

Results flagged for a closer look

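Ctgf in WT CONT replicate 2 had a log2 signal of 10.04, and the next liver of the group was at 8.34, a gap larger than 6 livers of a group usually show (95% limit of Dixon's test). Amotl2 in Pxr-/- PCN replicate 6 had a log2 signal of 9.73 with the next liver at 9.27 and was set apart by the same test. Without it the Pxr-/- change of Amotl2 was -0.22 (adjusted p = 0.316). These were 2 of 36 gene and group combinations examined, and chance alone sets apart about 1 group in 20.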

How the results depend on the processing

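Read from the brightest probe of each gene or the mean of its probes, no YAP gene was called higher in any comparison under any alternative run. A dimmer Tead1 probe passed both thresholds in Pxr-/- mice (0.74, adjusted p = 0.0108). The count called lower in WT mice (1, Cyr61) was 0 with normexp, with the deposited values, with stacked quantile normalization, without a filter, in washing batch 1 alone, in batch 2 alone and with the replicate block, and 0 to 1 with an array left out. Cyr61 changed by -0.54, -0.46, -0.47, -0.59, -0.70, -0.45 and -0.58 in these settings, in that order. With normexp and the replicate block the adjusted p stayed under the threshold (0.0281 and 0.0455) and the fold did not pass. Replicate numbers were not used to pair the mice in the main fit. Same-numbered deviations correlated at -0.19 to 0.601, 12 of 33 above 0.1, and 8 of 23 arrays correlated best with their own number. Between the WT and Pxr-/- control groups, numbers 1 to 4 gave 0.3, 0.601, 0.344 and 0.308, and numbers 5 and 6 gave -0.00658 and -0.0179. Whether same-numbered mice are linked was not tested. With the replicate number as a block Lats2 was at -0.28 and Amotl2 at -0.48 in WT mice (adjusted p = 0.0206 and 0.0117). Between the control groups 1 gene, Cyr61, was called lower with the deposited values, and 0 to 1 with an array left out.

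Signs turned only for changes that were called in no fit. With the deposited values and stacked quantile normalization, respectively, the WT change was 0.03 and 0.02 for Yap1 and 0.14 and 0.13 for Wwtr1, the Pxr-/- change of Lats2 was 0.04 in both, the difference of responses was 0.06 and 0.05 for Yap1 and 0.05 and 0.03 for Tead1, and the genotype difference was -0.07 and -0.06 for Wwtr1 and -0.08 in both for Axl. In batch 1 alone the difference of responses was 0.01 for Yap1 and 0.24 for Tead1, and the genotype difference was -0.04 for Wwtr1 and 0.04 for Ajuba. In batch 2 alone the WT change was -0.12 for Tead1 and -0.02 for Axl, the Pxr-/- change of Lats2 was 0.03, the difference of responses was -0.17 for Axl, and the genotype difference was 0.17 for Amotl2 and -0.20 for Axl. With the mean of all probes the Pxr-/- change of Yap1 was 0.04, and for Axl the difference of responses was -0.07 and the genotype difference -0.03. With an array left out the ranges were -0.09 to 0.02 for Wwtr1 in WT mice, -0.06 to 0.01 for Lats2 in Pxr-/- mice, -0.17 to 0.05 for the difference of responses of Tead1, and -0.12 to 0.04 for Amotl2 and -0.03 to 0.14 for Axl between the control groups. The cause of these turns was not tested.

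The list counts were recomputed under the same alternatives, a step chosen after seeing the data. Cultured-cell targets called higher in WT mice numbered 3 in batch 2 alone (6 as reported). In Pxr-/- mice they numbered 0 with stacked quantile normalization and in batch 1 alone, 1 without a filter, without the batch term, in batch 2 alone, with the replicate block and with only the groups compared, and 0 to 3 with an array left out (2 as reported). Genes raised by YAP in liver numbered 5 with the deposited values and 1 in batch 2 alone in WT mice (3 as reported), and in Pxr-/- mice 1 with the replicate block and with only the groups compared, and 0 to 1 with an array left out (0 as reported, 1 without WT CONT replicate 1 or 4, Pxr-/- CONT replicate 2 or Pxr-/- PCN replicate 6). Early response genes numbered 1 in WT mice in batch 2 alone (7 as reported) and 0 in Pxr-/- mice in either batch alone (6 as reported). Cell cycle genes numbered 0 in WT mice in batch 2 alone (10 as reported), and in Pxr-/- mice 2 without a filter, 0 in either batch alone and 1 to 6 with an array left out (4 as reported). Each batch alone holds 2 or 3 arrays a group. Ankrd1 could not be tested for want of signal over background.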
